A study of Mus musculus with 12 samples.

Results

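The early gene body was read here as all positions beyond 500 bp downstream of the transcription start site (TSS), up to the end of the deposited mean profiles about 2000 bp downstream. These were 1501 of 4001 positions, chosen by distance alone. The profiles describe acetylation of histone H4 at lysine 12 (H4K12ac), measured with ChIP-seq (chromatin immunoprecipitation followed by sequencing) in CA1, the hippocampal subfield named in the column headers. All mice were wild-type C57B/6JRj. They were 3 months old with vehicle (18 g/L cyclodextrin in water), called young below, 20 months old with vehicle, called aged, or 20 months old with SAHA at 0.67 g/L in the same vehicle, called SAHA. The mice of 20 months were treated by mouth for 4 weeks. Both neuronal and non-neuronal nuclei were profiled in each condition, with 1 ChIP library and 1 input library (sonicated chromatin without immunoprecipitation) for each of the 6 groups. Values listed in threes are in the order young, aged, SAHA. The sources used here do not state whether nuclei of several mice were pooled. Each position is an average over a set of TSS, so no sequence belongs to it, and with no genes in the profiles the labelled populations could not be checked against marker genes.

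Histone acetylation neutralises the positive charge of lysine side chains and loosens the contact between histone tails and DNA. H4K12ac is written by histone acetyltransferases, removed by histone deacetylases and read by bromodomain proteins. It is found around the TSS of active genes and extends into the start of the transcribed region. SAHA (vorinostat) inhibits histone deacetylases.

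All signals below are deposited values multiplied by 1000. A range such as 500 to 600 bp begins 1 position after its first number, and the last range runs to the final position of the profile. The inverse of the smallest step of signal, an indirect measure of depth called the divisor, was 36400000 to 65700000 for ChIP and 42200000 to 78000000 for input. The counting error of a mean over the early gene body was 0.0815% to 0.115% for ChIP and 0.0970% to 0.130% for input. This error, like the 95% counting intervals below, holds no variation between mice or preparations. Differences between ages or treatments rest on 1 library per group and have no replicate error and no test. Reads were counted over 300 bp, so changes over shorter distances cannot be resolved.

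The inputs themselves sloped downward in the early gene body, and 3 of them more than the others. From the first to the last 100 positions the neuronal input went from 4.19 to 4.05 (young), 4.54 to 4.12 (aged) and 4.24 to 4.08 (SAHA). The non-neuronal input went from 4.49 to 4.12, 4.19 to 4.07 and 4.65 to 4.20. The steeper inputs were thus the aged neuronal, the young non-neuronal and the SAHA non-neuronal one, at -9.34%, -8.30% and -9.72%, against -3.78% to -2.78% in the others. Because they fall in different conditions, each condition difference is given both for ChIP alone and as fold over own input.

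The first question was how H4K12ac decays into the gene body. H4K12ac fell steeply up to about 1000 bp and slowly from there on in all 6 libraries. In young neuronal nuclei the signal was 11.3 at the first position, 6.86 at 1000 bp, 5.66 at 1500 bp and 5.18 at the last position. The aged neuronal library had 9.97, 6.63, 5.57 and 5.17 at these positions, and the SAHA neuronal library 10.9, 6.69, 5.55 and 5.08. Non-neuronal nuclei had 12.9, 8.15, 6.55 and 5.89 (young), 11.9, 7.77, 6.32 and 5.71 (aged), and 12.6, 8.11, 6.53 and 5.86 (SAHA). The libraries were spread widely at the first position. At the last one the neuronal libraries lay close together and the non-neuronal ones stayed above them.

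**Figure D1:**
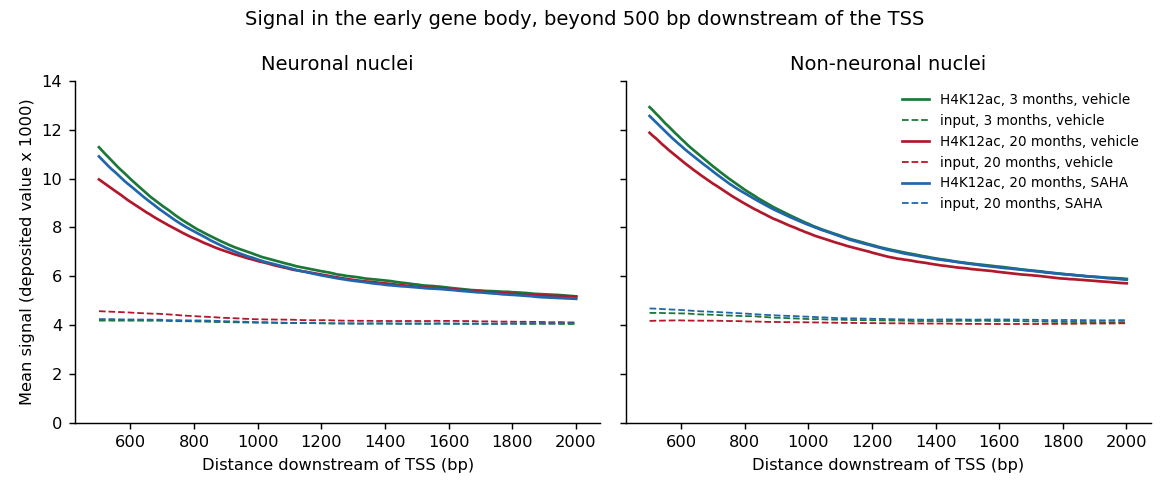
Mean signal (deposited value x 1000) against distance downstream of the TSS in bp, one line per library, solid for H4K12ac and dashed for input, with neuronal nuclei on the left and non-neuronal nuclei on the right. All H4K12ac lines fall toward the inputs without reaching them, from between 9.97 and 12.9 at the first position to between 5.08 and 5.89 at the last.

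The first position still held 76.5% to 81.7% of each library's own maximum, which lay between 222 and 240 bp, and the last position held 35.2% to 42.2% of it. The decay was smooth. In bins of 50 bp, each bin was lower than the one before it in 29 of 29 steps in every ChIP library, against 21 to 27 of 29 steps in the inputs. The second 100 bp stood at -11.4% to -9.26% from the first. The last 100 bp stood at only -1.93% to -1.06% from the 100 bp before. By 1000 bp, 66.5% to 72.5% of the whole fall had taken place.

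The last 100 positions lay at -50.8%, -45.4% and -50.3% from the first 100 in neuronal nuclei and at -51.6%, -49.1% and -50.5% in non-neuronal nuclei. For ChIP alone the aged library thus had the shallowest decay within each population. On the log2 scale and minus the decay of own input, it was the shallowest only in neuronal nuclei, at -0.73 against -0.98 (young) and -0.95 (SAHA). In non-neuronal nuclei it was then about as steep as the young one, at -0.93 against -0.92, and steeper than the SAHA one at -0.87. Over all pairs this log2 decay of ChIP minus that of its own input was -0.90 ± 0.089 (SD, n = 6 pairs) and was below 0 in 6 of 6 pairs. An exact two-sided permutation test, which flips the sign of each pair, gave p = 0.031, the smallest that 6 pairs allow. With Benjamini-Hochberg adjustment this exact p became 0.052 over the 5 planned tests and 0.094 over all 15 tests made. The same adjusted values apply to the other planned tests over 6 pairs, and 0.094 to those added later. All tests over 6 pairs or libraries treat these as independent. Whether both populations of a condition came from the same mice was not known here.

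The decay was also measured on the excess, the ChIP signal minus that of its own input. In neuronal nuclei the excess had dropped to 50% of its first value after 343 bp (counting error 3.93 bp) in the young, 406 bp (5.56 bp) in the aged and 345 bp (3.39 bp) in the SAHA library. In non-neuronal nuclei this distance was 442 bp (4.14 bp), 461 bp (4.05 bp) and 462 bp (4.21 bp). The 3 neuronal distances were all shorter than the 3 non-neuronal ones. A drop to 25% took 891, 1050 and 849 bp in neuronal nuclei and 1183, 1245 and 1230 bp in non-neuronal nuclei.

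The excess did not follow a single exponential down to the level of own input. An exponential toward a level above input was not fitted. Fitted to the logarithm of the excess, the distance for an e-fold drop was 511 to 669 bp between 500 and 1000 bp, 891 to 1038 bp between 1000 and 1500 bp, and 1199 to 1705 bp beyond 1500 bp. It lengthened from each stretch to the next in all 6 libraries. The last 100 positions kept 18.3%, 21.6% and 17.0% of the excess of the first 100 in neuronal nuclei. They kept 23.3%, 23.7% and 23.5% in non-neuronal nuclei, where the conditions hardly differed.

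**Figure D2:**
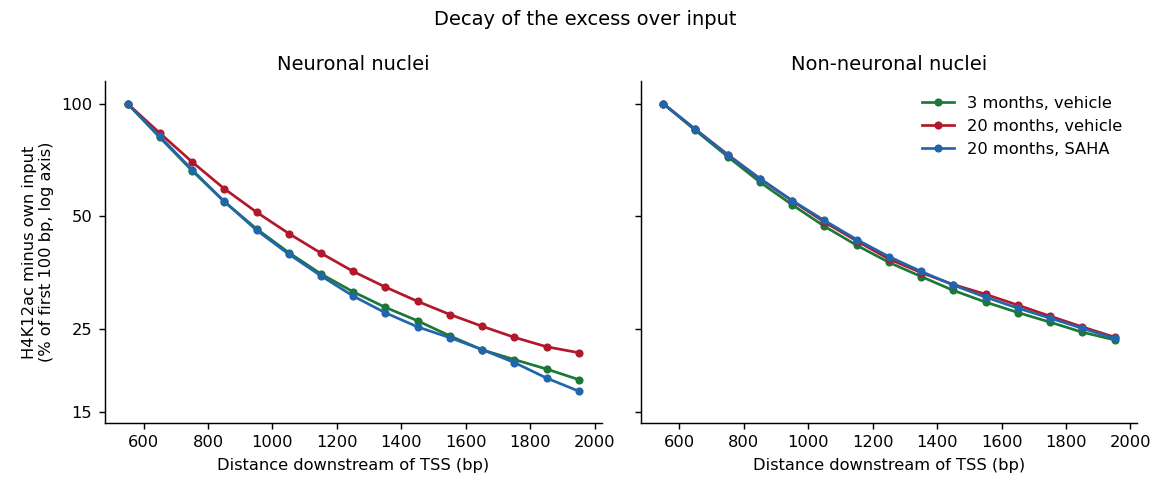
ChIP minus own input in bins of 100 bp, as a percentage of the first bin on a log axis, against distance downstream of the TSS in bp, one line per condition and one panel per population. The lines bend upward, so the decay slows with distance, and the aged line lies above the other neuronal lines while the 3 non-neuronal lines nearly coincide.

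The next question was how far H4K12ac stood above input. Averaged over the early gene body, neuronal ChIP was 6.73 over an input of 4.09 (1.64-fold) in the young, 6.46 over 4.25 (1.52-fold) in the aged and 6.57 over 4.12 (1.59-fold) in the SAHA pair. Non-neuronal ChIP was 7.85 over 4.25 (1.85-fold), 7.47 over 4.10 (1.82-fold) and 7.78 over 4.33 (1.80-fold). ChIP lay above its input at 100% of the positions in every pair. The mean log2 fold was 0.77 ± 0.12 (SD, n = 6 pairs, exact permutation p = 0.031), and 6 of 6 pairs were above 0. Each pair stands for a different group, so this test concerns these 6 pairs and no single condition.

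The fold declined with distance and did not reach 1. It was 2.54, 2.09 and 2.43 in the first 100 positions of neuronal nuclei and 2.73, 2.70 and 2.57 in those of non-neuronal nuclei. By the last 100 positions it was 1.29, 1.26 and 1.25 in neuronal and 1.44, 1.41 and 1.41 in non-neuronal nuclei. The mean log2 fold there was 0.42 ± 0.093 (SD, n = 6 pairs, exact permutation p = 0.031). Such a fold assumes that the authors' normalization puts ChIP and input on one scale.

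**Figure D3:**
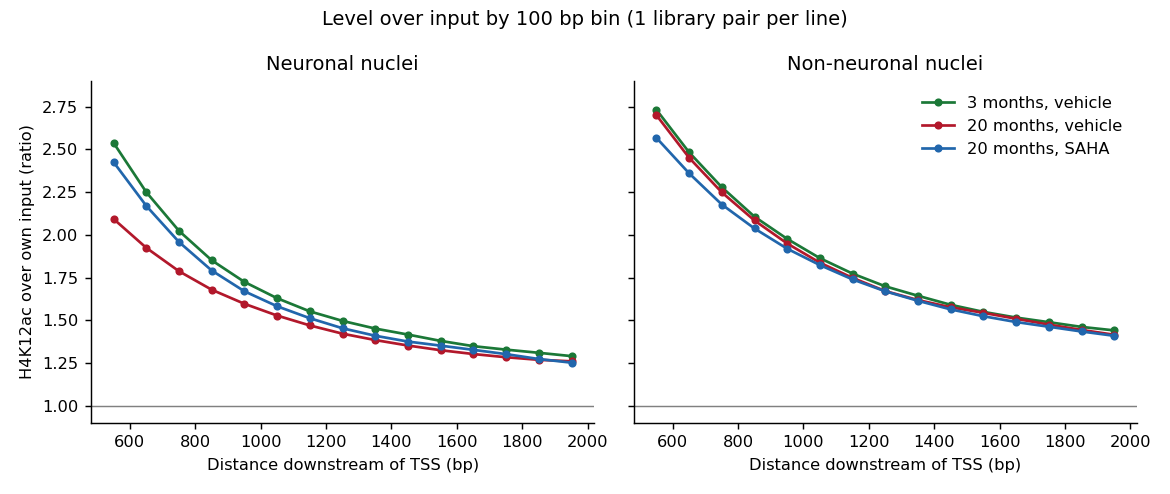
Ratio of H4K12ac to its own input in bins of 100 bp against distance downstream of the TSS in bp, one line per library pair, with a grey line at a ratio of 1. All lines stay above 1 to the end of the profile, between 1.25 and 1.29 for neuronal and between 1.41 and 1.44 for non-neuronal nuclei.

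Positions at the same distance upstream of the TSS had less H4K12ac. The mean over 500 to 2000 bp downstream was 11.8%, 9.86% and 11.7% above that over the matching upstream positions in neuronal nuclei, and 9.96%, 9.64% and 10.5% above it in non-neuronal nuclei. The mean log2 difference was 0.15 ± 0.013 (SD, n = 6 libraries, exact permutation p = 0.031). The inputs leaned the same way by a smaller log2 of 0.043 ± 0.014 (SD, n = 6 libraries, exact permutation p = 0.031). The lead of the gene body over upstream was 15.5% to 24.8% at 500 to 600 bp and 7.43% to 8.55% at 1900 to 2000 bp. Close to 500 bp it was 24.2% and 24.8% in the young and SAHA neuronal libraries, 18.0% in the aged neuronal library and 15.5% to 17.0% in the non-neuronal ones. The inputs led there by 2.99%, 7.06% and 4.35% in neuronal and 7.22%, 2.88% and 8.16% in non-neuronal nuclei. In fold over own input, the aged neuronal pair had 2.09 downstream and 1.90 upstream, the aged non-neuronal pair 2.70 and 2.41. The aged neuronal lead was then smaller than the aged non-neuronal one, but larger than those of the young and SAHA non-neuronal pairs. The young and SAHA neuronal leads stayed the largest.

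Neuronal and non-neuronal nuclei were then set against each other within each condition. The early gene body of neuronal nuclei carried less H4K12ac in all 3 conditions, and the 3 neuronal means lay below all 3 non-neuronal ones. The log2 difference in ChIP was -0.22, -0.21 and -0.24 and averaged -0.23 ± 0.017 (SD, n = 3 conditions, exact permutation p = 0.25, the smallest that 3 pairs allow). As fold over own input it was -0.17, -0.26 and -0.17, averaging -0.20 ± 0.052 (SD, n = 3 conditions, exact permutation p = 0.25). When ChIP and input were each first divided by their own signal at the upstream end of the profile, the mean was -0.027 (exact permutation p = 1). Neuronal nuclei were then lower in the aged pair only. The fold over own input at the upstream end was 1.23, 1.21 and 1.21 in neuronal and 1.39, 1.36 and 1.37 in non-neuronal nuclei. Most of the gap in level was therefore also present far upstream.

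For ChIP alone, the 3 neuronal libraries lay below the 3 non-neuronal ones in 15 of 15 bins of 100 bp, and in 90% of the 40 bins of the whole profile. As fold over own input they did so in 15 of 15 bins, and in 82.5% of the 40 bins. The gap in ChIP was widest before 1000 bp. It was -16.2% between 800 and 900 bp in the young and -16.0% between 700 and 800 bp in the aged libraries. In the SAHA libraries it was -17.6% between 900 and 1000 bp. The aged gap was nearly as wide in the first bin, at -15.9%. In each condition the gap in ChIP was narrowest beyond 1900 bp, at -12.0%, -9.90% and -13.7%. In fold over own input, the log2 gap of the last 100 positions was -0.17 ± 0.0059 (SD, n = 3 conditions, exact permutation p = 0.25), nearly the same in each condition.

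**Figure D4:**
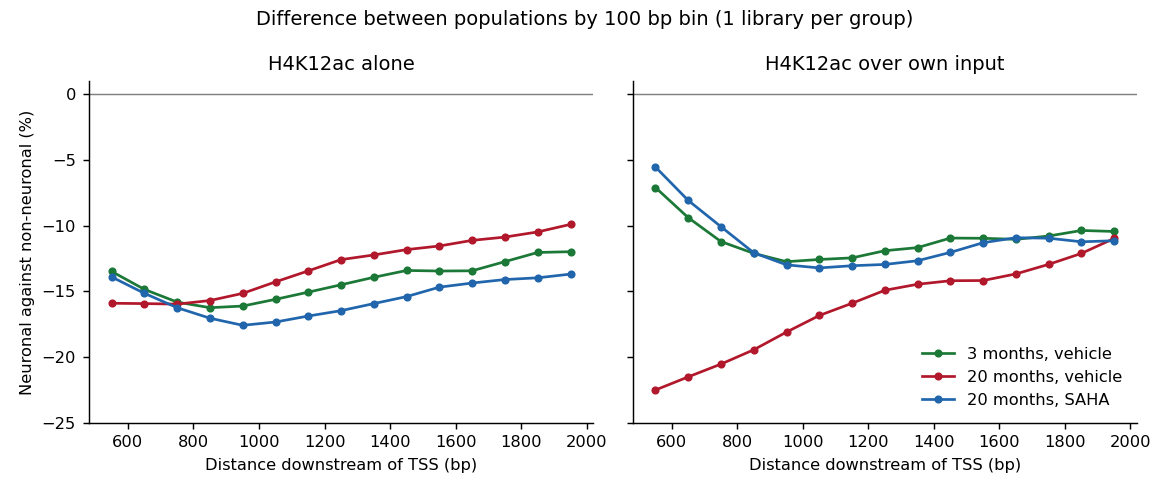
Difference of neuronal from non-neuronal nuclei in percent by bins of 100 bp against distance downstream of the TSS in bp, for H4K12ac alone on the left and divided by own input on the right, one line per condition. All points lie below 0, and the aged line divided by own input runs from -22.5% in the first bin to -11.0% in the last.

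The shape of the decay separated the populations less clearly. Neuronal minus non-neuronal, the distance to 50% of the excess over input took the values -99, -55 and -117 bp and averaged -90.3 ± 31.9 bp (SD, n = 3 conditions, exact permutation p = 0.25). The planned distance, to 50% of the ChIP excess over its own last 100 positions, showed a smaller gap in each condition. It was 268, 296 and 276 bp in neuronal and 314, 321 and 321 bp in non-neuronal nuclei. The share of the excess over input left in the last 100 positions differed by -5.07, -2.17 and -6.55 percentage points. The log2 decay of ChIP alone leaned the other way and was shallower in neuronal nuclei, by 0.025, 0.10 and 0.0037. Minus the decay of own input, this log2 difference was -0.053, 0.20 and -0.088, so that neuronal nuclei had the shallower decay in the aged pair only (mean 0.020, n = 3 conditions, exact permutation p = 1).

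The age comparison set the aged against the young libraries. The aged neuronal library had less H4K12ac at the start of the early gene body, and the difference shrank to under 1% of the signal at its end. ChIP in the first 100 positions was 10.6 in the young and 9.51 in the aged library, or -10.5% (log2 -0.16, 95% counting interval -0.17 to -0.15). Over the last 100 positions the values were 5.23 and 5.19, or -0.679% (log2 -0.0098, 95% counting interval -0.020 to 0.0001). The whole early gene body differed by -4.05% (log2 -0.060, 95% counting interval -0.064 to -0.056), against -16.0% for the 500 bp next to the TSS.

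In neuronal nuclei the aged library was lower by over 5% in 4 of 15 bins, those up to 900 bp, against 37.5% of the 40 bins of the whole profile. The 95% counting interval lay below 0 in 14 of 15 bins, against 87.5% of the 40 bins. The signal was lower at 1501 of 1501 positions, against 99.8% of all positions. The difference was -11.7% at the first position, -3.40% at 1000 bp, -1.67% at 1500 bp and -0.206% at the last, and had shrunk to 50% of its first value at 790 bp. The early gene body makes up 75.0% of the downstream positions and held 27.5% of the summed downstream age difference.

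As fold over own input, the aged neuronal library had 1.52 against 1.64 in the young, a log2 difference of -0.11 (95% counting interval -0.12 to -0.11). It ran from -17.5% in the first to -2.35% in the last 100 positions. The aged input lay above the young one by 8.57% and 1.71% there, beside the ChIP differences given above. The excess of the aged library was 77.1% of the young one in the first and 91.1% in the last 100 positions. The aged library had the highest ChIP divisor, 65700000, and the young one the lowest, 36400000. The part of depth in this difference was not tested.

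Non-neuronal nuclei of aged mice had less ChIP signal than those of young mice along the whole stretch. The first 100 positions had 12.3 in the young and 11.3 in the aged library, or -7.90% (log2 -0.12, 95% counting interval -0.12 to -0.11). The last 100 had 5.94 and 5.76, or -2.98% (log2 -0.044, 95% counting interval -0.052 to -0.035). Averaged over the early gene body the difference was -4.92% (log2 -0.073, 95% counting interval -0.076 to -0.069), against -10.1% next to the TSS. The aged library was lower by over 5% in 4 of 15 bins, against 45% of the 40 bins. The relative difference did not shrink to 50% of its first value until 1311 bp, and the stretch held 43.4% of the summed downstream difference.

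Division by own input removed most of the non-neuronal age difference. The fold was 1.82 in the aged and 1.85 in the young pair, a log2 of -0.022 (95% counting interval -0.028 to -0.016), and the bins lay between -1.78% and -0.356%. The aged input was -3.45% from the young one over these positions. With ChIP and input each divided by their own upstream signal, the log2 difference was 0.0025. The excess of the aged library was 91.5% of the young one in the first and 93.0% in the last 100 positions, a nearly constant share.

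The relative age difference in ChIP was further from 0 in neuronal nuclei over the first 100 positions (-10.5% against -7.90%) and further from 0 in non-neuronal nuclei over the last 100 (-2.98% against -0.679%). This contrast between the populations was not tested. As a scale only, the ChIP difference over the early gene body was larger than that of 12 of the 15 pairs of inputs in neuronal and 13 in non-neuronal nuclei.

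**Figure D5:**
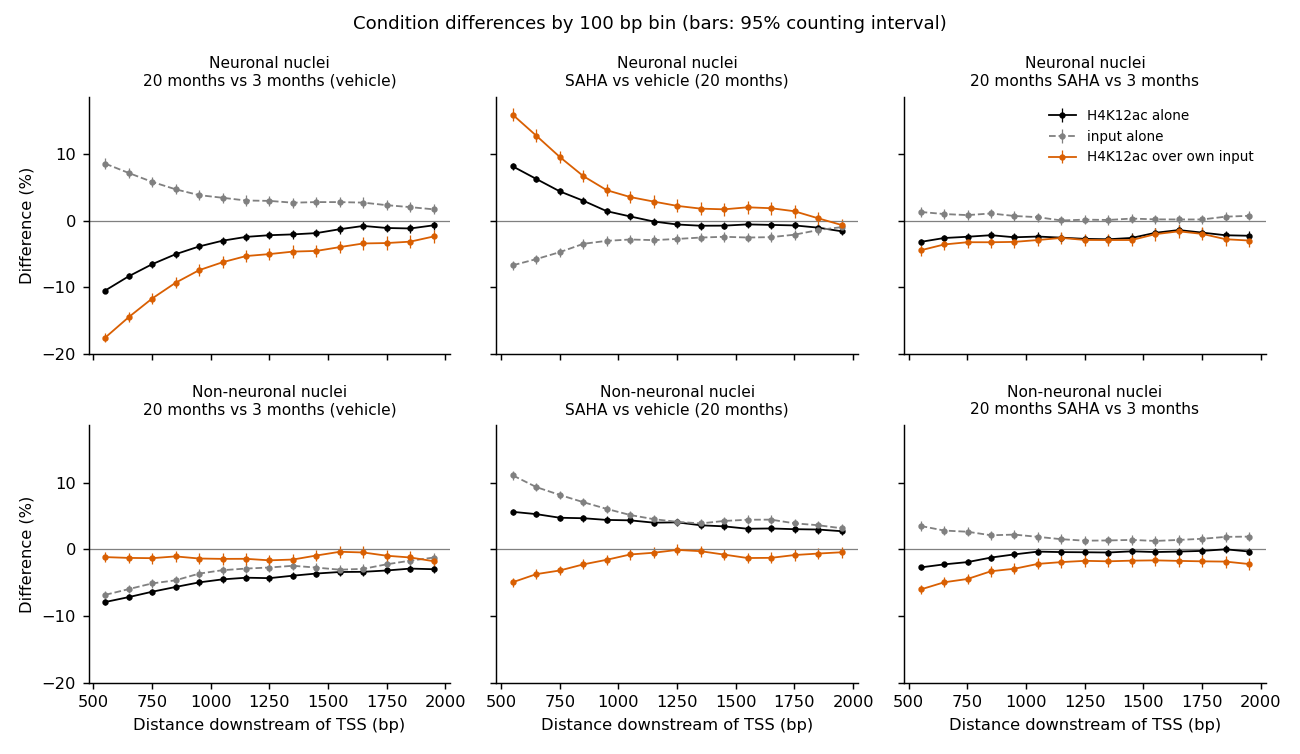
Percent difference by bins of 100 bp against distance downstream of the TSS in bp for 3 contrasts in each population, for H4K12ac alone, input alone and H4K12ac over own input, with 95% counting intervals as bars. For H4K12ac alone the neuronal SAHA difference runs from 8.15% to below 0, whereas the non-neuronal one stays between 2.73% and 5.64%.

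The SAHA comparison set the SAHA against the aged libraries and so shares the aged libraries with the age comparison. The SAHA neuronal library had more H4K12ac in the first part of the early gene body and slightly less beyond it. ChIP over the first 100 positions was 9.51 in the aged and 10.3 in the SAHA library, or 8.15% higher (log2 0.11, 95% counting interval 0.11 to 0.12). The last 100 positions had 5.19 and 5.11, or -1.58% (log2 -0.023, 95% counting interval -0.032 to -0.014). The whole early gene body differed by 1.71% (log2 0.024, 95% counting interval 0.021 to 0.028), against 14.9% for the 500 bp next to the TSS.

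In neuronal nuclei the SAHA signal first dropped below the aged signal at 1129 bp and stayed below it at 100% of the positions from there on. It was higher by over 5% in 2 of 15 bins, against 25% of the 40 bins of the whole profile. The 95% counting interval lay above 0 in 6 of 15 bins and below 0 in 6, against 47.5% and 32.5% of the 40 bins. It held 0 in the bins at 1100 to 1200, 1200 to 1300 and 1500 to 1600 bp, so the crossing position is approximate. The stretch held 16.5% of the summed downstream SAHA difference, a net sum in which its higher and lower positions partly cancel. This ChIP difference was larger than that of 4 of the 15 input pairs.

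As fold over own input, the SAHA neuronal library had 1.59 against 1.52, or a log2 difference of 0.070 with a 95% counting interval of 0.064 to 0.077. It was 15.9% in the first 100 positions and -0.639% in the last (log2 -0.0092, 95% counting interval -0.023 to 0.0046). Between the inputs themselves the log2 difference was -0.046 over the stretch. On this scale the 95% counting interval lay above 0 in 13 of 15 bins, against 80% of the 40 bins, so the place of the crossing depended on the input.

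The SAHA non-neuronal library had more ChIP signal than the aged one along the whole stretch. The first 100 positions had 11.3 in the aged and 11.9 in the SAHA library, or 5.64% more (log2 0.079, 95% counting interval 0.073 to 0.085). The last 100 had 5.76 and 5.92, or 2.73% more (log2 0.039, 95% counting interval 0.030 to 0.047). The mean over the early gene body was 4.14% higher (log2 0.058, 95% counting interval 0.055 to 0.062), against 6.22% next to the TSS. The SAHA signal was higher at 1501 of 1501 positions, and at 100% of all positions. It was higher by over 5% in 2 of 15 bins, against 30% of the 40 bins, and the stretch held 52.6% of the summed downstream difference.

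Divided by own input, the non-neuronal SAHA difference had the opposite sign. The fold was 1.80 against 1.82, a log2 of -0.020 (95% counting interval -0.025 to -0.015). Single bins ran from -4.92% at 500 to 600 bp to -0.0765% at 1200 to 1300 bp. The SAHA input lay above the aged one by 11.1% in the first and 3.18% in the last 100 positions, more than the ChIP libraries differed there. The excess with SAHA was 102% of that of the aged library at both ends of the stretch.

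Last, the SAHA libraries were set against the young ones. In neuronal nuclei the SAHA signal averaged -2.41% from the young one (log2 -0.035, 95% counting interval -0.039 to -0.031). The bins lay between -3.18%, in the first bin, and -1.40%. The relative difference was -3.35% at the first position and first reached 50% of that value at 1575 bp. It then widened again, to -2.25% over the last 100 positions. The non-neuronal SAHA signal averaged -0.987% from the young one (log2 -0.014, 95% counting interval -0.018 to -0.011). It ran from -2.71% in the first to -0.327% in the last 100 positions, and the 95% counting interval lay below 0 in 5 of 15 bins, against 75% of the 40 bins. The SAHA signal was lower by over 5% in 0 of 15 bins in both populations, against 5% of the 40 bins in neuronal and 7.5% in non-neuronal nuclei.

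In fold over own input, SAHA against young was a log2 of -0.043 (95% counting interval -0.049 to -0.037) in neuronal and -0.042 (95% counting interval -0.048 to -0.036) in non-neuronal nuclei. The excess with SAHA was 93.9% of the young one in the first and 87.4% in the last 100 positions of neuronal nuclei, and 93.7% and 94.6% in non-neuronal nuclei. The gap in excess was thus wider at the far end in neuronal nuclei and nearly even in non-neuronal nuclei. These ChIP differences were larger than those of 6 of the 15 input pairs in neuronal and 4 in non-neuronal nuclei.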

How the data were processed

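H4K12ac ChIP and input were deposited as a signal that the authors normalized ("norm" per the file headers), 1 mean per position from -2000 to 2001 with no position 0. The early gene body is 501 to 2001. The submitters' processing notes name CASAVA 1.8.2, Bowtie2 and mm10; the scaling, the TSS used and the handling of duplicates are not stated there. Per the labels' protocols, fragments were about 300 bp.

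Source names gave the groups and titles the pairs of ChIP and input. Steps below a set size between neighbouring positions were whole multiples of a smallest step (tolerance 0.1 of it, 100% of these steps). This smallest step was read as 1 read by inference. Larger steps, as where the signal fell steeply, were left out of this check. The lag of the strongest negative autocorrelation was 300 bp. Counting intervals use the step, this length and the over-dispersion (1.59 to 1.74), and are lower limits because neighbouring TSS can share reads. They were tested only on simulated pairs of ChIP profiles without such shared reads, and not for fold over own input.

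The main value was mean ChIP over mean own input, 501 to 2001; the last of the 15 bins has 101 positions, and the upstream end is -2000 to -1601. Reach is the distance in consecutive bins with a ChIP difference over 5%. Tests were exact two-sided sign-flip permutation tests. By the rule for named features, no gene is named, as the profiles hold none; the features are the mean, the first and last 100 positions (from 1902), the bins and the distance to 50% of the excess over the last 100 positions (268 to 321 bp). The members, features and tests were chosen with earlier results of these data known. The excess over input and its distances, e-fold distances, summed differences, single positions and input pairs were added after the profiles were seen. Alternatives were ChIP alone, a common input, the own upstream signal, other windows, thresholds and bins, and leaving out each pair. Python 3.11.15, NumPy 2.4.6, pandas 2.3.3 and Matplotlib 3.10.9 were used.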

Additional observations from a re-analysis of the deposited data

Results flagged for a closer look

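As fold over own input, the SAHA difference over the early gene body had opposite signs, with a log2 of 0.070 for neuronal and -0.020 for non-neuronal nuclei, a contrast of 0.090. For ChIP alone both lay above 0, at 0.024 and 0.058. Over the last 100 positions ChIP alone went opposite ways in the other order, with a log2 of -0.023 in neuronal and 0.039 in non-neuronal nuclei, a contrast of -0.062. Neither contrast was tested, since each group has 1 library. The inputs moved by a log2 of -0.046 in neuronal and 0.078 in non-neuronal nuclei over the early gene body, and their part was not tested.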

How the results depend on the processing

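Between ages or treatments no paired analysis was possible because each group has 1 library, so the groups compared share fewer than 2 replicate numbers. ChIP and input were paired by title throughout, and the populations were paired within condition. For condition differences the SD of the 6 inputs over the early gene body, a log2 of 0.034, served as a scale only. Of 30 alternative values, 17 moved by less than this, 10 by more without a change of sign, and 3 reversed. The common-input values among them repeat those of ChIP alone, including a reversal.

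For ChIP alone the age difference was a log2 of -0.060 (neuronal) and -0.073 (non-neuronal), and the SAHA difference 0.024 and 0.058 (reversed). A common input cancels in these ratios and gave the same -0.060, -0.073, 0.024 and 0.058 (reversed), so it is no separate check. Over the own upstream signal, the non-neuronal age difference was 0.0025 (reversed). Below 1000 bp the neuronal age difference was -0.19 and beyond it -0.063, and the neuronal SAHA difference 0.14 and 0.025. The causes were not tested. SAHA against young stayed below 0 under the alternatives run.

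The reach was 400 bp for age and 200 bp for SAHA in both populations and 0 bp for SAHA against young, and 13 of 24 alternatives moved it by over 1.5 times. With a threshold of 3% it was 1300 bp for age and 1300 bp for SAHA in non-neuronal nuclei, and 400 bp for SAHA and 100 bp for SAHA against young in neuronal nuclei. With 10% it was 100 bp for age and 0 bp for SAHA in neuronal nuclei and 0 bp for both in non-neuronal nuclei. Over own input it was 800 bp for age and 400 bp for SAHA in neuronal nuclei, and 0 bp, 0 bp and 100 bp for age, SAHA and SAHA against young in non-neuronal nuclei.

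The means of the 5 tested results kept their direction and their side of the threshold in 15 of 15 alternatives. This says nothing of stability for the comparisons over 3 conditions, where p cannot go below 0.25. Over the own upstream signal, the neuronal level was below the non-neuronal one in the aged pair only. With 1 pair left out, ChIP over input was 0.74 to 0.80, the decay -0.93 to -0.88 and the gene body against upstream 0.14 to 0.15 (exact permutation p = 0.0625, the smallest for 5 pairs, which says nothing of stability). Neuronal against non-neuronal was then -0.22 to -0.17 and the difference in decay of ChIP alone 0.014 to 0.062. That difference was 0.020 minus the decay of own input, with the sign turned in 2 of 3 conditions.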
